A study of Homo sapiens with 12 samples.

Results

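The genes described here carry glucose through glycolysis and into the pentose phosphate pathway, and were taken as a list of 32 symbols matched to the 58037 Ensembl identifiers of the count table. All 32 were found. They were read in 12 RNA sequencing libraries of the established lines BT-549 and SUM149, which come from triple-negative breast cancer. Such tumours lack estrogen receptor, progesterone receptor and HER2. The 4 groups of 3 libraries were BT-549 with CshRNA, BT-549 with MUC1shRNA, SUM149 with CshRNA and SUM149 with MUC1shRNA. CshRNA is a control hairpin and MUC1shRNA a hairpin against MUC1-C, the transmembrane part of the mucin MUC1, each stably expressed by the cells. The descriptions of the BT-549 controls speak of a vector, so whether those cells carried a control hairpin is uncertain. BT-549 grew in RPMI1640 and SUM149 in Ham's F-12 with hydrocortisone, both with serum and insulin, so line and medium cannot be told apart. Whether an arm was a clone or a pool of cells, and whether its 3 sets were separate transfections, is unstated, and p-values therefore measure the spread between these libraries only.

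Glycolysis turns glucose into pyruvate in the cytosol and yields ATP and NADH, and many tumour cells reduce the pyruvate to lactate and export it even when oxygen is present. Phosphofructokinase is a main point of control: PFKFB enzymes make and break its allosteric activator. PDK kinases inhibit pyruvate dehydrogenase and so hold pyruvate back from the mitochondria. The pentose phosphate pathway branches off at glucose phosphate and supplies NADPH and ribose. Many of these genes are known targets of the hypoxia-inducible factors and of MYC.

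Libraries held 7931614 to 24140623 counts, and in SUM149 the CshRNA arm was 2.44 times as deep as the MUC1shRNA arm. MUC1 fell with the hairpin against it, from 47.8, 49.5 and 50.3 CPM to 3.32, 5.55 and 3.94 CPM in BT-549 and from 17.7, 18.0 and 13.0 CPM to 1.16, 0.366 and 0.524 CPM in SUM149 (edgeR adjusted p = 4.2e-07 and 1.8e-08). CPM are counts scaled to a common library total, with TMM factors that correct for composition. For MUC1 and for the comparisons of the arms below, the scaling was within each line. For the cell markers of this paragraph and for levels per kilobase it was over all 12 libraries. Fold changes and adjusted p of the arms came from the fits within a line for the markers too. CshRNA 3 and MUC1shRNA 2 of BT-549 and CshRNA 3 of SUM149 stood apart from their replicates, with a chi-square per degree of freedom between replicates of up to 14.5, against 1.85 for the closest pair. The mean of ESR1 was at most 0.116 CPM and that of PGR at most 0.0174 CPM in BT-549, and in SUM149 ESR1 rose from 2.32 ± 0.291 to 4.88 ± 0.15 CPM (SD, n = 3 each; edgeR adjusted p = 3.65e-04). ERBB2, which encodes HER2, was at 48.5 CPM in BT-549 controls and 58.6 CPM in SUM149 controls, and fell with MUC1shRNA in SUM149 (-0.67, edgeR adjusted p = 9.87e-06). The epithelial genes EPCAM and CDH1 were at 0.287 and 0.890 CPM in BT-549 controls and at 402.0 and 199.9 CPM in SUM149 controls, while VIM was at 1518 and 31.4 CPM. The keratins KRT18 and KRT8, also epithelial, were at 290.4 and 44.5 CPM in BT-549 controls and at 392.9 and 560.7 CPM in SUM149 controls, and both rose with MUC1shRNA in BT-549, KRT8 by 2.66 and KRT18 by 1.17 on the log2 scale. The 6 leukocyte markers summed to at most 8.37 CPM in any library, with CD3E at 0 in every group, and the 6 endothelial markers to 8.49 to 8.62 CPM with CshRNA and 16.6 to 19.8 CPM with MUC1shRNA in BT-549 and to 37.1 to 41.0 CPM and 19.8 to 21.8 CPM in SUM149. The 7 fibroblast markers, led by COL1A2 and with LUM at 0, summed in BT-549 to 2631 to 2904 CPM with CshRNA and 3440 to 3581 CPM with MUC1shRNA, and COL3A1 (0.82), COL1A2 (0.35) and COL1A1 (0.19) rose past the test. In SUM149 they summed to 33.2 to 43.0 CPM and 26.8 to 29.8 CPM. These markers thus moved with the arms compared below, and their part in those results was not tested.

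The promoters of 4 genes are shown because these genes carry the main contrasts below: PGK1 and PFKFB3 moved in opposite directions in the lines, ENO2 fell in both, and SLC2A1 rose in SUM149. Each is the 250 bases before a RefSeq gene start on GRCh38.p14, read 5′ to 3′ along the gene. Capitals mark ACGTG on either strand, the core of the hypoxia response element, and CACGTG, the E-box bound by MYC, holds that core on both strands.
PGK1, chrX:78103998-78104247, plus strand: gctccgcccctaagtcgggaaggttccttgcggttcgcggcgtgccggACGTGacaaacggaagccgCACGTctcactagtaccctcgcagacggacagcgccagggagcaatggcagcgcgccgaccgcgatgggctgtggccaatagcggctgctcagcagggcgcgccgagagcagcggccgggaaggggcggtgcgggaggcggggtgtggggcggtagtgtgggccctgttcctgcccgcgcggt
PFKFB3, chr10:6202682-6202931, plus strand: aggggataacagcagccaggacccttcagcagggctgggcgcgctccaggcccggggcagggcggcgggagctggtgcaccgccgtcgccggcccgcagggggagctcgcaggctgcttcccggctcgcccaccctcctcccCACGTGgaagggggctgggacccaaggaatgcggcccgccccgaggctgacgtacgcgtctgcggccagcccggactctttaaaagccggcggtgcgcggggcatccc
ENO2, chr12:6914330-6914579, plus strand: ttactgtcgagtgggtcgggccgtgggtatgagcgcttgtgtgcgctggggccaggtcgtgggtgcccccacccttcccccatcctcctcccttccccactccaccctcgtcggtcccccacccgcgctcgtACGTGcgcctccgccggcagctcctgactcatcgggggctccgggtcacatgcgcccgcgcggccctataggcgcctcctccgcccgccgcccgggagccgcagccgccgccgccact
SLC2A1, chr1:42958869-42959118, minus strand: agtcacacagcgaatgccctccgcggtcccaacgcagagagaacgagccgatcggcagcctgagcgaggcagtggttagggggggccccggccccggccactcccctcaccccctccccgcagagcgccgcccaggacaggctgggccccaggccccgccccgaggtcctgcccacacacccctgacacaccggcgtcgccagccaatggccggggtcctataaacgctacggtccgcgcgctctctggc
The core stood at 2 places in the PGK1 window, beginning 202 and 183 bases before the gene start, and at 1 place in the windows of PFKFB3 (108 bases before the start, as an E-box) and ENO2 (118 bases before it). These letters were not in the SLC2A1 window. A second PFKFB3 start, at chr10:6144671-6144920, also had no match. Of the 59 windows that RefSeq gives for 29 of the 32 genes, 21 held the core (35.6%) and 7 an E-box (11.9%). Among all 35116 windows of this length the shares were 18.5% and 6.35%. SLC2A3, SLC16A1 and PFKFB2 were matched to no window. A match describes letters and is not a binding site.

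Summed over the 32 genes, these transcripts took a smaller part of the library with MUC1shRNA in BT-549 and a larger part in SUM149. In BT-549 the CshRNA libraries had 2.19%, 2.16% and 2.29% of their counts in these genes and the MUC1shRNA libraries 1.90%, 2.03% and 1.87%. In SUM149 the CshRNA libraries had 1.58%, 1.59% and 1.62% and the MUC1shRNA libraries 1.67%, 1.78% and 1.73%. In neither line did the arms overlap. Without GAPDH, ENO1, PKM and ALDOA, the 28 other genes took 0.861% ± 0.0159 with CshRNA and 0.765% ± 0.0213 with MUC1shRNA in BT-549, and 0.637% ± 0.0267 and 0.687% ± 0.0107 in SUM149 (SD, n = 3 each). These shares are descriptions without a test. In bulk RNA, fewer cells with a transcript and less RNA per cell cannot be told apart.

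**Figure D1:**
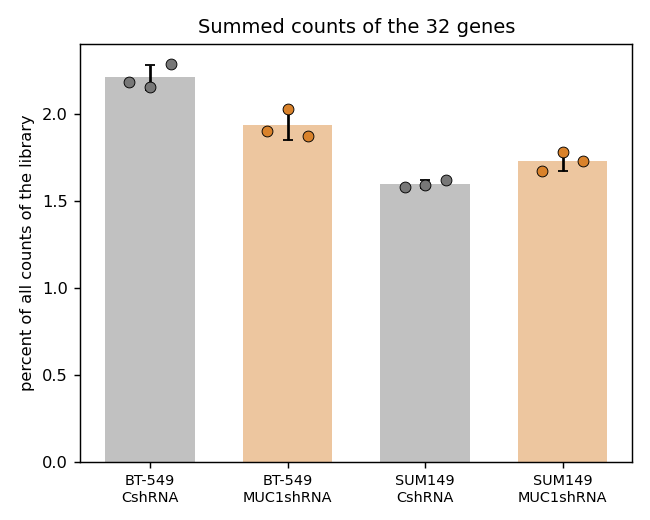
Percent of all counts of a library that fell in the 32 genes (vertical axis) in each of the 4 groups, with libraries as points, means as bars and SD as error bars. The BT-549 means go from 2.21% to 1.94% and the SUM149 means from 1.60% to 1.73%.

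Levels between genes were compared as CPM per kilobase of exon. In BT-549 controls enolase ENO1 was highest at 1254 ± 52.5, then the dehydrogenase GAPDH at 1016 ± 39.4, the aldolase ALDOA at 506.7 ± 36.8 and the isomerase TPI1 at 394.7 ± 15.7 (CPM per kilobase, SD, n = 3). In SUM149 controls GAPDH led at 755.3 ± 25.3, followed by ENO1 at 490.6 ± 3.81 and the lactate dehydrogenase LDHB at 459.7 ± 10.1. ENO1 was thus above GAPDH in BT-549 and below it in SUM149, by more than the SD in each case. This order depends on the exon lengths, 5276 bases for ENO1 and 2981 for GAPDH: in CPM without length, ENO1 was above GAPDH in SUM149 controls too, at 2796 against 2433, and PKM led at 3031. The glucose transporter SLC2A3 and the kinase PDK4 were lowest, at 0.0918 and 0.105 in BT-549 controls. Exon length was the union over all annotated transcripts, which understates genes with many rare exons. Part of the exon sequence of ALDOA (42.3%) and of LDHB (33.4%) is also annotated to a same-strand neighbour, and 38.6% of that of PDK2 to SAMD14 on the opposite strand. The sources used here give neither the counting rule nor its strand setting, so reads of such pairs may be lost or mixed.

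The first comparison asked how these genes responded to MUC1 silencing in BT-549. Of 31 genes tested, 9 fell and 1 rose at an edgeR adjusted p below 0.05, against 16.5% lower and 16.8% higher among all 13200 genes tested, and 32.3% of the 31 changed in either direction, against 33.3% of all genes. Their median log2 fold change was -0.09, against -0.01 over all genes. Those that fell were the hexokinases HK1 and HK2, ALDOC, TPI1, PGK1, PGAM1, both enolases and the regulator PFKFB3, while GAPDH was not past the test. PFKFB2 was the gene that rose. The libraries of the arms did not overlap for 2 genes that were higher and 13 that were lower with MUC1shRNA, against 23.6% and 23.5% of all genes tested and 47.1% in all. A log2 fold change past the test and of at least 0.58 in size was found for 3 genes, all lower (PGAM1, ENO2 and PFKFB3), against 4.7% of all genes lower, 5.59% higher and 10.3% in all. PDK4 had too few counts to be tested, with 0.436 ± 0.131 and 0.608 ± 0.420 CPM (SD, n = 3 each).

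PGAM1, the phosphoglycerate mutase, was at 129.4, 139.4 and 134.0 CPM with CshRNA and at 64.9, 61.8 and 62.7 CPM with MUC1shRNA in BT-549. Every silenced library lay below every control library, and the log2 fold change came to -1.09 (SE 0.05, edgeR adjusted p = 1.5e-06). PGAM1 lies on chromosome 10 (97426160 to 97433441, plus strand, GRCh38). It has 13 annotated pseudogenes, whose counts came to 0.728% of its own in BT-549 controls and 5.87% in SUM149 with MUC1shRNA. The sources used here do not say how reads shared with these copies were counted, so its level is uncertain.

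ENO2, the enolase named for neurons, was at 82.3, 78.3 and 78.0 CPM with CshRNA and at 48.9, 48.3 and 47.1 CPM with MUC1shRNA. The arms did not overlap, and the log2 fold change was -0.73 (SE 0.06, edgeR adjusted p = 1.8e-05). The common enolase ENO1 fell by 0.30 on the log2 scale (SE 0.05, edgeR adjusted p = 0.0022), with 6109 ± 273 CPM in controls and 4955 ± 168 CPM in silenced cells (SD, n = 3 each).

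PFKFB3, whose kinase activity makes the activator of phosphofructokinase, was at 102.7, 95.8 and 126.5 CPM with CshRNA and at 61.7, 86.9 and 66.7 CPM with MUC1shRNA in BT-549. The arms did not overlap, although the highest silenced library and the lowest control library were close. The log2 fold change was -0.60 (SE 0.13, edgeR adjusted p = 0.0080). The high silenced library was MUC1shRNA 2 and the highest control was CshRNA 3, both of which stood apart from their replicates.

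Hexokinases phosphorylate glucose as it enters the cell, and HK1 and HK2 fell in BT-549. A further member, HKDC1, was at -1.28 there and not past the test (edgeR adjusted p = 0.0549), at only 0.965 and 0.414 CPM. In SUM149 HKDC1 fell past the test (-0.75, edgeR adjusted p = 0.0236), from 4.41 to 2.63 CPM. In BT-549 HK1 went from 267.6 ± 17.4 to 193.6 ± 12.5 CPM (-0.47, SE 0.07, edgeR adjusted p = 7.4e-04). HK2 went from 130.6 ± 7.48 to 95.1 ± 4.33 CPM (-0.46, SE 0.06, edgeR adjusted p = 5.4e-04, SD, n = 3 each). The minor aldolase ALDOC fell by 0.41 and phosphoglycerate kinase PGK1 by 0.27 on the log2 scale (edgeR adjusted p = 0.0093 and 0.0021). TPI1 passed narrowly at -0.16 (edgeR adjusted p = 0.049), and did not pass in 9 of 15 other fits, among them DESeq2 and each fit without CshRNA 1, 2 or 3 or MUC1shRNA 1 or 3. PFKFB2, another enzyme of the activator, rose by 0.36 (SE 0.09, edgeR adjusted p = 0.012), with 19.2 ± 1.79 CPM in controls and 24.6 ± 1.14 CPM in silenced cells (SD, n = 3 each).

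The other genes of BT-549 were not past the test. The transporter SLC2A1 was at 0.05, GPI at 0.00, the phosphofructokinases PFKL, PFKM and PFKP at 0.06, -0.08 and -0.14, and ALDOA at -0.04. GAPDH was at -0.13, pyruvate kinase PKM at -0.15, LDHA at -0.09 and LDHB at -0.04. Of the pentose phosphate enzymes, PGD was at -0.04, TALDO1 at 0.06 and transketolase TKT at -0.30 (edgeR adjusted p = 0.058). TKT passed in 6 of 15 other fits, among them DESeq2 (adjusted p = 0.0209) and the fit of all 12 libraries (edgeR adjusted p = 0.0336). Its response did not differ between the lines past the test (-0.10, edgeR adjusted p = 0.62). SLC2A3 was at 0.83 (edgeR adjusted p = 0.068) from 7 to 21 counts a library. When CshRNA 3 and MUC1shRNA 2 were left out, 12 genes fell and 2 rose, since GAPDH (-0.14), PKM (-0.16), TKT (-0.32) and SLC2A1 (0.15) then also passed. Calls over all genes went up as well, from 4398 of 13200 to 5325 of 13144, of which 2594 fell and 2731 rose.

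**Figure D2:**
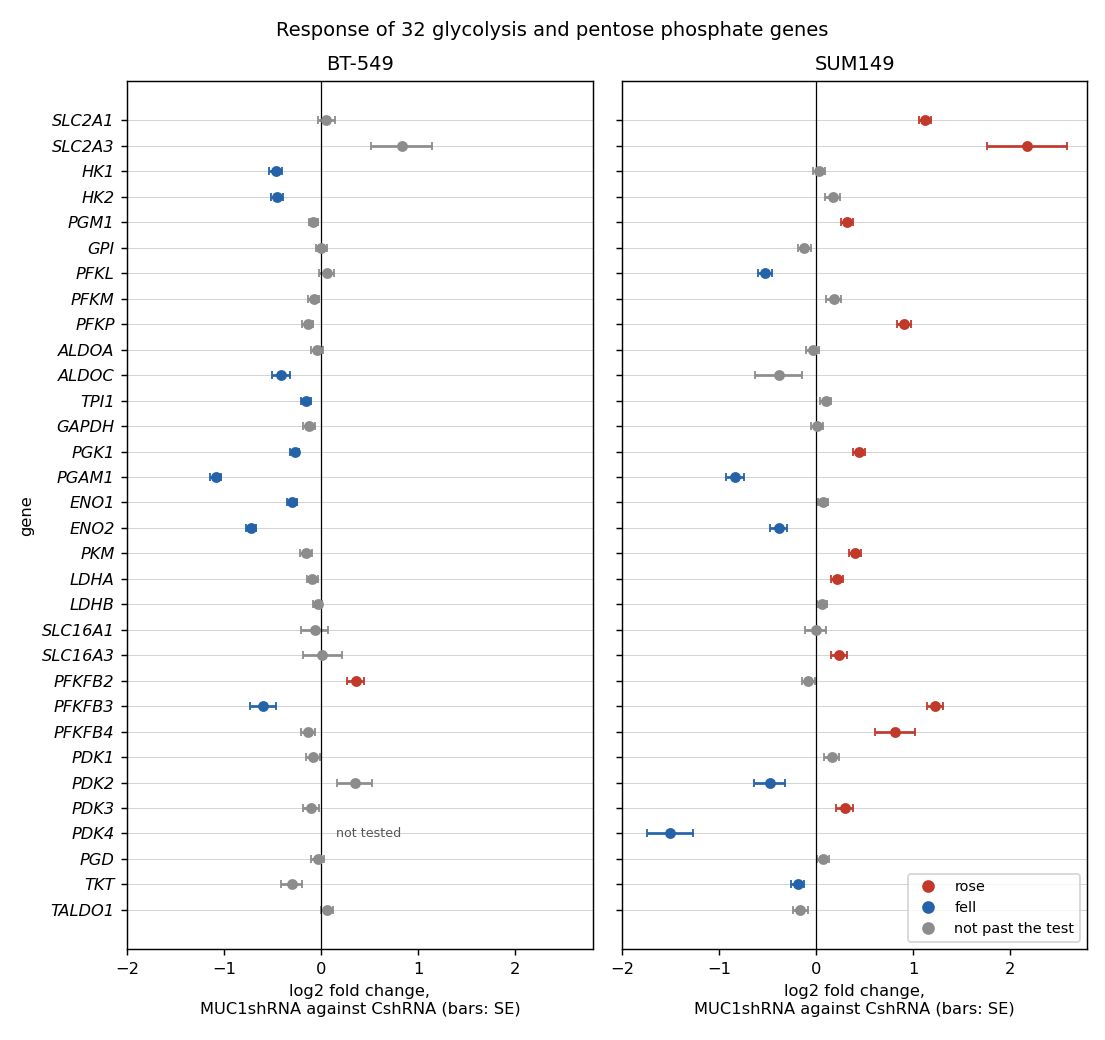
Each of the 32 genes has a row in pathway order, and the horizontal axis gives its log2 fold change with MUC1shRNA over CshRNA. BT-549 is the left panel and SUM149 the right one, with SE as bars. Points are coloured by whether the gene rose, fell or was not past edgeR's test: 1 rose and 9 fell in BT-549, while 11 rose and 6 fell in SUM149.

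The same question was then put to SUM149, where 11 of 32 genes rose and 6 fell, against 27.6% higher and 28.9% lower among all 14178 genes tested. The share changed, 53.1%, was close to the 56.5% of all genes, and the median log2 fold change was 0.07, against -0.03 over all genes. SLC2A1, SLC2A3, PFKP, PFKFB3 and PFKFB4, PGK1, PKM, LDHA and the lactate exporter SLC16A3 were among those that rose. PGAM1, ENO2, PFKL, PDK2, PDK4 and TKT fell. The arms did not overlap for 16 genes that were higher and 6 that were lower, against 30.3% and 32.2% of all genes tested and 62.5% in all. Of the calls, 5 higher and 2 lower ones were at least 0.58 in size, against 11.7% and 16.5% of all genes and 28.2% in all.

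SLC2A1, which encodes the glucose transporter GLUT1, was at 106.3, 105.2 and 102.1 CPM with CshRNA and at 229.9, 227.4 and 226.2 CPM with MUC1shRNA in SUM149. The arms lay far apart, and the log2 fold change came to 1.12 (SE 0.06, edgeR adjusted p = 6.9e-09). SLC2A3, the transporter GLUT3, was at 0.581, 0.718 and 0.196 CPM with CshRNA and at 3.21, 1.46 and 2.20 CPM with MUC1shRNA. It was higher by 2.17 (SE 0.41, edgeR adjusted p = 5.7e-04), from 4 to 14 counts a control library and 12 to 25 counts a silenced library, so its size is imprecise. The control libraries alone would not have passed the filter on low counts, so SLC2A3 entered the test through the silenced arm. Its value is therefore not read as a result, although it is counted among the genes that rose.

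PFKP, the platelet-type phosphofructokinase, was at 157.6, 154.6 and 176.3 CPM with CshRNA and at 294.7, 325.1 and 297.4 CPM with MUC1shRNA in SUM149. All silenced libraries were higher, and the log2 fold change came to 0.91 (SE 0.07, edgeR adjusted p = 2.4e-07). PFKL, the liver type, fell by 0.53 (SE 0.07, edgeR adjusted p = 2.5e-05), with 122.3 ± 4.55 CPM in controls and 84.9 ± 5.13 CPM in silenced cells (SD, n = 3 each). PFKM, the muscle type, was at 0.18 (edgeR adjusted p = 0.057) and passed with DESeq2 (adjusted p = 0.0408).

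PFKFB3 rose in SUM149, from 19.9, 18.7 and 18.1 CPM to 44.6, 45.2 and 42.8 CPM (1.22, SE 0.08, edgeR adjusted p = 5.5e-08). PFKFB4, a hypoxia-inducible member of the same family, was at 3.53, 2.87 and 4.36 CPM with CshRNA and at 7.45, 5.36 and 6.18 CPM with MUC1shRNA. The arms of both genes stayed apart, and PFKFB4 rose by 0.82 (SE 0.21, edgeR adjusted p = 0.0044). PFKFB2 was at -0.08 (edgeR adjusted p = 0.36).

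PGK1, which makes the first ATP of the pathway, was at 696.9, 747.4 and 759.6 CPM with CshRNA and at 998.6, 977.3 and 1017 CPM with MUC1shRNA in SUM149. It rose by 0.44 (SE 0.06, edgeR adjusted p = 3.45e-05), whereas in BT-549 it went from 1423, 1458 and 1444 CPM to 1184, 1232 and 1165 CPM. PKM, the last enzyme of glycolysis, rose by 0.41 (SE 0.06, edgeR adjusted p = 8.0e-05), with 3031 ± 126 CPM in controls and 4014 ± 229 CPM in silenced cells (SD, n = 3 each). Counts per gene cannot separate the M1 and M2 splice forms of PKM. LDHA (0.22), SLC16A3 (0.23), PDK3 (0.30) and the phosphoglucomutase PGM1 (0.32) also rose, with edgeR adjusted p = 0.011, 0.023, 0.011 and 5.2e-04.

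PGAM1 fell in SUM149 too, from 46.1, 47.0 and 50.6 CPM to 29.3, 27.3 and 24.1 CPM (-0.84, SE 0.09, edgeR adjusted p = 4.7e-06). ENO2 was at 33.6, 30.6 and 31.7 CPM with CshRNA and at 24.9, 26.1 and 22.6 CPM with MUC1shRNA (-0.38, SE 0.09, edgeR adjusted p = 0.0023). For both genes the arms did not overlap in either line.

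PDK4 was at 4.48, 5.08 and 4.11 CPM with CshRNA and at 1.54, 1.22 and 1.99 CPM with MUC1shRNA in SUM149. It fell by 1.51 on the log2 scale (SE 0.23, edgeR adjusted p = 1.2e-04). PDK2 fell by 0.48 (edgeR adjusted p = 0.022) and TKT by 0.19 (edgeR adjusted p = 0.031), while PDK1 was at 0.16 (edgeR adjusted p = 0.089).

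The remaining genes of SUM149 were not past the test. HK1 was at 0.03, HK2 at 0.17, GPI at -0.12, ALDOA at -0.03, ALDOC at -0.39, TPI1 at 0.10, GAPDH at 0.01, ENO1 at 0.07 and LDHB at 0.06. SLC16A1 was at -0.01, PGD at 0.07 and TALDO1 at -0.16. Several calls close to the threshold depended on the fit or on single libraries. In 1 fit of all 12 libraries SLC16A3 and TKT did not pass (edgeR adjusted p = 0.111 and 0.101), nor did LDHA without the filter on low counts (0.065) or PDK2 with DESeq2 (adjusted p = 0.0532). TKT did not pass without CshRNA 1 or 2 or MUC1shRNA 1 or 3. LDHA did not pass without CshRNA 1 or 2 or MUC1shRNA 3, SLC16A3 without MUC1shRNA 2, PDK2 without CshRNA 3 or MUC1shRNA 1 or 3, and PDK3 without CshRNA 1 or MUC1shRNA 3. Without CshRNA 3, which stood apart, 12 genes rose and 5 fell. In that fit 4064 of all 13573 genes tested rose and 4242 fell.

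**Figure D3:**
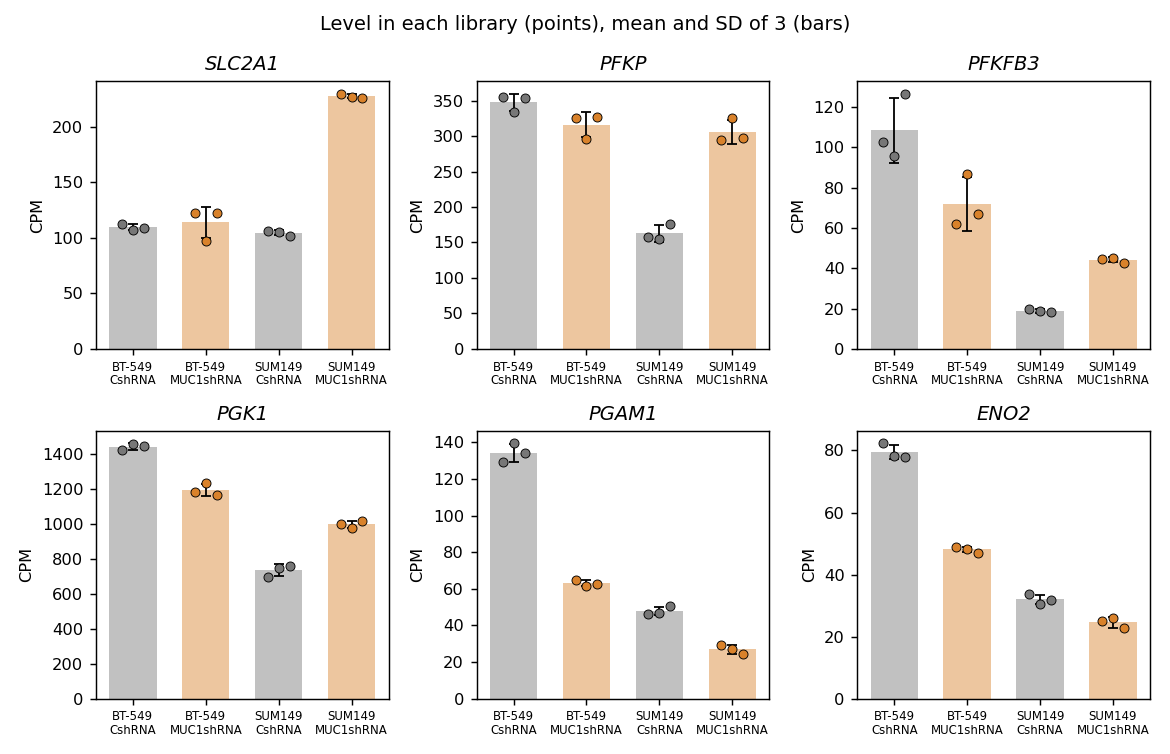
CPM (vertical axes) of 6 genes in each library of the 4 groups, with libraries as points, means of 3 as bars and SD as error bars; CPM were scaled within each line. PFKFB3 and PGK1 fell in BT-549 and rose in SUM149, PGAM1 and ENO2 fell in both, and SLC2A1 and PFKP rose in SUM149.

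The third comparison asked whether the lines responded differently, as the response in BT-549 minus that in SUM149 over all 12 libraries. The responses differed for 18 of 32 genes (56.2%), against 39.6% of all 15649 genes tested. For 14 of them the difference was negative and for 4 positive, against 20.1% and 19.5% of all genes. With the filter of 5 CPM in 3 libraries the excess was smaller: 17 of 30 members and 5777 of 11547 genes tested differed. Of those members 14 had a negative difference and 3 a positive one, against 2871 and 2906 of those genes. PFKFB3 had the most negative difference, -1.80 (SE 0.17, edgeR adjusted p = 1.4e-06). SLC2A1 followed at -1.05 (SE 0.10), PFKP at -1.03 (SE 0.09), PFKFB4 at -0.93 (SE 0.20) and PGK1 at -0.70 (SE 0.07), with edgeR adjusted p from 7.7e-07 for PFKP to 0.00165 for PFKFB4. HK2 (-0.61), PKM (-0.54), HK1 (-0.48), PGM1 (-0.39), PDK3 (-0.38), ENO1 (-0.36), ENO2 (-0.32), LDHA (-0.29) and TPI1 (-0.24) were the other negative ones. Positive differences were those of PDK2 (0.84), PFKL (0.60), PFKFB2 (0.45) and PDK4. The value for PDK4 (1.98, SE 0.54) is not read as a result, although it is among the 18: the gene had 5 to 20 counts a library in BT-549, where it was too low to be tested, and entered the joint fit through SUM149. It came to 1.28 and did not pass without BT-549 MUC1shRNA 2 (edgeR adjusted p = 0.0583). The differences of PDK3, TPI1 and ENO2 did not pass without the filter on low counts. That of PDK3 also did not pass without BT-549 MUC1shRNA 3 or SUM149 CshRNA 1, CshRNA 2 or MUC1shRNA 3, and that of TPI1 without BT-549 MUC1shRNA 1 or 3 or SUM149 MUC1shRNA 3. For PGAM1 the difference was -0.24 (SE 0.10, edgeR adjusted p = 0.081). It passed without SUM149 CshRNA 3 or without SUM149 MUC1shRNA 3 (edgeR adjusted p = 0.0432 and 0.0347). The difference of PFKM passed with DESeq2 (-0.26, adjusted p = 0.0362), with RLE scaling and without SUM149 CshRNA 3. That of PDK1 passed without SUM149 MUC1shRNA 2, and that of SLC16A3 without BT-549 MUC1shRNA 2.

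Among the genes called in both lines, PGAM1 and ENO2 fell in both, as did 5.11% of the 12125 genes tested in both. PGK1 and PFKFB3 moved in opposite directions, as did 9.93% of those genes. No member rose in both, where 5.97% of all genes did.

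The fourth comparison set the control cells of the lines side by side, where line and medium cannot be told apart. The descriptions name the libraries by a different pattern in each line and do not say whether the lines were processed together. Of the 32 genes 18 were higher in BT-549 and 8 higher in SUM149 (81.2% in all), against 39.5% and 43.5% of all genes and 83% in all. The median log2 difference was 0.48, against -0.07 over all genes. The 8 include PDK4 (-3.12), whose value is not read as a result. It had 5 to 11 counts a library in BT-549 controls and entered the joint fit through SUM149. LDHA, which favours the making of lactate, was 4.82 times as high in BT-549 (log2 difference 2.27, SE 0.06), while LDHB was 1.51 times as high in SUM149 (-0.60, SE 0.05). PFKFB3 and PFKFB4 were each 6.71 times as high in BT-549, and PFKFB2 was 3.83 times as high in SUM149. SLC16A3, which encodes the lactate exporter MCT4, was 36.8 times as high in SUM149 (log2 difference -5.20, SE 0.15, edgeR adjusted p = 6.1e-14). SLC16A1, the transporter MCT1, was at 0.06 (edgeR adjusted p = 0.66). PGAM1 was 3.28, ENO2 2.91, ENO1 2.56, PFKP 2.50 and PGK1 2.29 times as high in BT-549, with edgeR adjusted p from 8.8e-13 for ENO1 to 5.0e-11 for PFKP. HK1, GPI, PFKM, PKM and SLC2A3 were not past the test, at 0.08, 0.11, 0.11, 0.08 and 0.31.

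**Figure D4:**
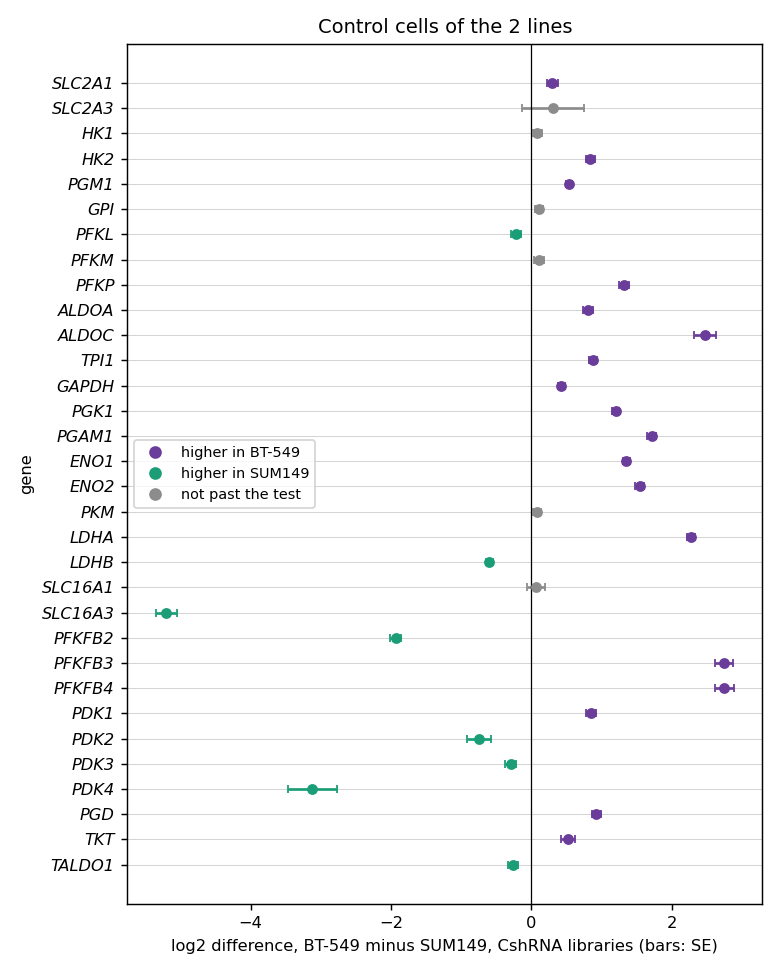
Log2 difference between the control libraries, BT-549 minus SUM149 (horizontal axis), of the 32 genes in pathway order (vertical axis), with SE as bars. SLC16A3 lies farthest to the left at -5.20, PFKFB3 and PFKFB4 farthest to the right at 2.75. The point of PDK4 rests on 5 to 11 counts a library in BT-549.

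Within the list, the composition of isozyme families differed more between the lines than between the arms for LDHA with LDHB and for SLC16A1 with SLC16A3. LDHA made up 55.2% ± 0.879 of the lactate dehydrogenase level per exon length in BT-549 controls and 54.3% ± 0.566 after silencing, against 14.5% ± 0.908 and 15.8% ± 0.0551 in SUM149 (SD, n = 3 each). SLC16A3 made up 19.6% ± 1.79 and 20% ± 4.26 of the sum of SLC16A1 and SLC16A3 in BT-549, and 90.2% ± 1.38 and 91.6% ± 1.12 in SUM149. This sum leaves out the transporter SLC16A7, which in SUM149 was at 48.5 CPM with CshRNA and 17.3 CPM with MUC1shRNA, against 20.9 CPM for SLC16A1 in both arms. HK2 held 33.6% ± 0.395 and 33.8% ± 0.522 of hexokinase in BT-549, and 23.1% ± 0.321 and 24.8% ± 1.81 in SUM149.

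The phosphofructokinase and PFKFB families also shifted with MUC1shRNA in SUM149. PFKP went from 55.0% ± 0.271 to 71.5% ± 0.655 of phosphofructokinase in SUM149, where the arms did not overlap, and was at 75.9% ± 0.142 and 74.3% ± 2.52 in BT-549 (SD, n = 3 each). PFKFB3 went from 25.5% ± 0.509 to 44.5% ± 0.869 of its family in SUM149 and from 76.9% ± 2.97 to 67.8% ± 3.49 in BT-549. PFKFB2 went from 69.6% ± 1.42 to 49.1% ± 0.756 in SUM149 and from 8.23% ± 1.06 to 14.1% ± 1.33 in BT-549. PDK4 went from 8.48% ± 1.21 to 2.77% ± 0.536 of the PDK family in SUM149, and PDK3 from 48.4% ± 1.23 to 56.4% ± 1.36. These shares are descriptions, with no test.

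**Figure D5:**
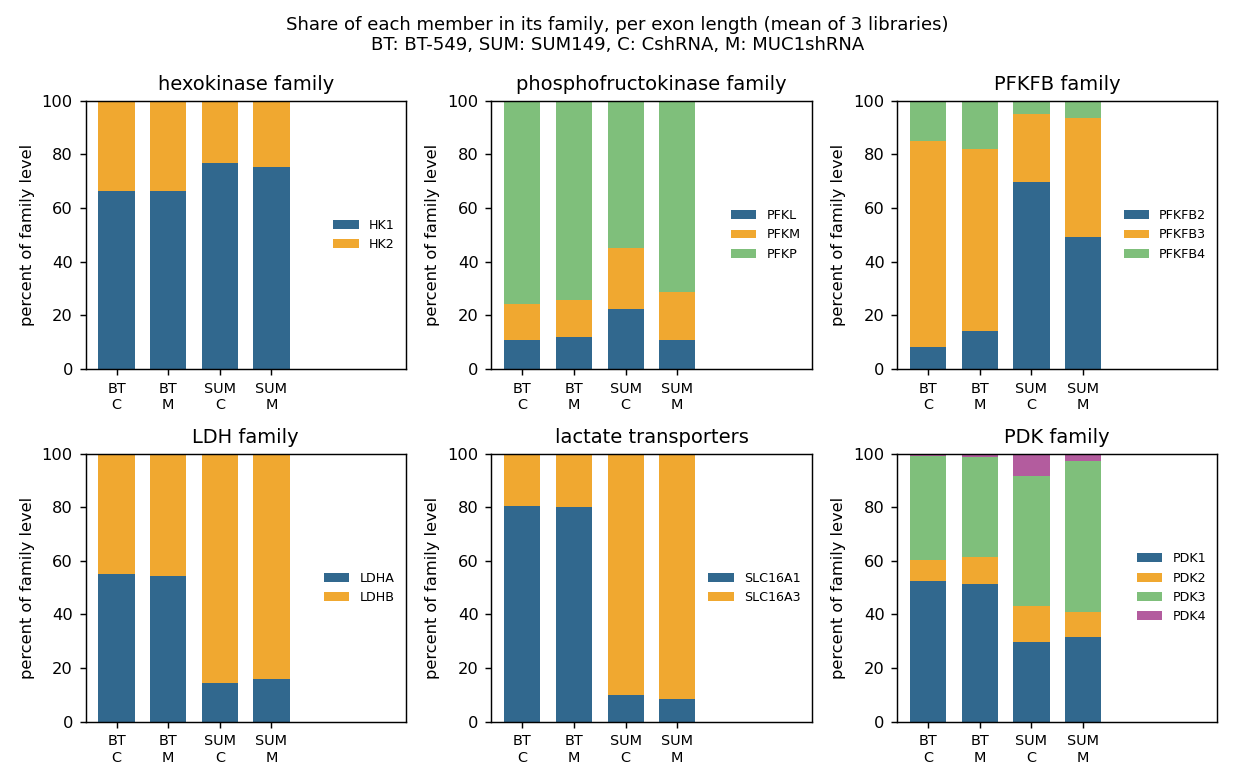
Percent of the summed level per exon length held by each member (vertical axes) in 6 enzyme or transporter families, as means of 3 libraries in each of the 4 groups. PFKFB3 goes from 25.5% to 44.5% in SUM149 and from 76.9% to 67.8% in BT-549, and SLC16A3 holds 19.6% of its sum with SLC16A1 in BT-549 controls and 90.2% in SUM149 controls.

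Other genes of sugar use were read from fixed lists, with the same test over all genes. Among all genes tested, 16.8% rose and 16.5% fell in BT-549 (33.3% in all). In SUM149, 27.6% of all genes rose and 28.9% fell (56.5% in all). Of 10 tested further pentose phosphate genes, 2 rose and 2 fell in BT-549 (40% in all). In SUM149, 5 of these rose and 3 fell (80% in all). H6PD, an enzyme of the endoplasmic reticulum, fell by 0.26 on the log2 scale in BT-549 and from 171.7 to 51.7 CPM in SUM149 (-1.73, SE 0.08, edgeR adjusted p = 2.8e-09). The ribokinase RBKS (0.84) and PRPS2, which makes the ribose donor for nucleotides (0.35), rose in BT-549. TIGAR, a phosphatase that lowers the activator of phosphofructokinase, rose in SUM149 by 1.26 (SE 0.11) and the isomerase RPIA by 0.76 (SE 0.07). The lactonase PGLS fell there (-0.53).

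Of 12 genes listed for pyruvate entry into the mitochondria, 6 rose and 1 fell in BT-549 (58.3% in all). Their median log2 fold change was 0.23, against -0.01 over all genes. In SUM149, 2 rose and 6 fell (66.7% in all), with a median of -0.13, against -0.03 over all genes. The list also holds PCK2 and PC, which do not bring pyruvate in and are among the falls in SUM149. The pyruvate carrier MPC2 (0.55) and the phosphatase PDP2 (0.56), which activates pyruvate dehydrogenase, rose in BT-549. PDPR, a regulatory subunit of pyruvate dehydrogenase phosphatase, fell there (-0.18). In SUM149 PCK2, the mitochondrial carboxykinase that makes phosphoenolpyruvate, and PC, pyruvate carboxylase, fell from 70.8 to 10.2 CPM (-2.80, SE 0.09) and from 146.7 to 28.1 CPM (-2.38, SE 0.08), while PDP1 (0.25) and DLD (0.19) rose.

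Of the other isozymes of the same steps, 9 of 25 could be tested in BT-549, where 1 rose and 2 fell (33.3% in all). In SUM149, 12 could be tested, where 3 rose and 6 fell (75% in all). The ADP-dependent glucokinase ADPGK (-1.10) and the transporter SLC2A6 (-0.85) fell in BT-549, and PGM3 rose (0.27). In SUM149 the lactate transporter SLC16A7 (-1.49) and the enolase ENO3 (-1.61) fell, and PGM2 (0.79) and PGM2L1 (0.79) rose. The sugar transporters SLC2A10 (-2.14) and SLC2A8 (-1.36), named after their values were seen, also fell there. SLC2A12 of the same list rose (0.945, edgeR adjusted p = 0.0215), as did SLC2A1. SLC2A3 was higher too, but its value is not read as a result. SLC2A10, SLC2A8 and SLC2A12 were low, at 3.31, 4.04 and 1.69 CPM with CshRNA and 0.742, 1.58 and 3.28 CPM with MUC1shRNA.

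Of the genes of glycogen, hexosamine, polyol and fructose use, 3 rose and 7 fell of 15 in BT-549 (66.7% in all). In SUM149, 4 rose and 5 fell of 17 (52.9% in all, against 56.5% of all genes). AKR1B1, the aldose reductase, fell by 0.57 and GFPT2, which opens the hexosamine pathway, by 0.78 in BT-549, where UAP1 (0.45) and PYGB (0.33) rose. In SUM149 UGP2 (1.00) and UAP1 (0.83) rose, while PYGB (-0.73) and GFPT1 (-0.98) fell. GFPT2 (0.65) and AKR1B1 (0.42), which fell in BT-549, rose in SUM149.

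Regulators of glycolytic genes rose in 4 and fell in 1 of 16 in BT-549, and rose in 5 and fell in 6 of 19 in SUM149. The shares changed, 31.2% and 57.9%, were close to the 33.3% and 56.5% of all genes. EPAS1, a hypoxia-inducible factor, rose in BT-549 from 144.1 to 223.3 CPM (0.63, SE 0.06), as did TXNIP, which limits glucose uptake (0.47), and FOXK1 fell there (-0.54). In SUM149 PPARGC1A, a coactivator of mitochondrial genes, fell from 81.7 to 8.16 CPM (-3.32, SE 0.11) and ARRDC4, a relative of TXNIP, from 48.5 to 21.0 CPM, while HIF1AN (0.69) and MLX (0.35) rose.

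Hypoxia targets outside glycolysis rose in 1 and fell in 6 of 24 in BT-549, with a median of -0.08, and rose in 10 and fell in 6 of 24 in SUM149, with a median of 0.11. The shares changed were 29.2% and 66.7%, against 33.3% and 56.5% of all genes, whose medians were -0.01 and -0.03. The carbonic anhydrase CA9 fell from 42.0 to 17.0 CPM (-1.30, SE 0.13) and ANGPTL4 by 0.44 in BT-549, where STC1 rose (0.59, SE 0.08). In SUM149 ANGPTL4 (4.20, SE 0.14) and STC1 (2.29, SE 0.10) rose, and DDIT4 (-1.61, SE 0.07) and VEGFA (-1.36, SE 0.09) fell. All calls of these lists are at an edgeR adjusted p below 0.05, and the lists were not compared with other genes by a test.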

How the data were processed

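The deposited table holds raw read counts per Ensembl gene that the authors made, without normalization, 1 column per library. Libraries were made with TruSeq Stranded mRNA, per the labels' protocols. Per the submitters' processing notes the tools were STAR 2.7.0, CASAVA 1.8.2 and DESeq2 1.24.0 and the build GRCh38.p7, with no role given for any. Symbols, coordinates and exon lengths came from GENCODE 29 (57433 of 58037 identifiers matched), and 45 pseudoautosomal copies on chromosome Y were not used. The libraries of a line were modelled by themselves in R 4.3.3 (edgeR 4.0.16), with TMM scaling, filterByExpr and the quasi-likelihood test, with Benjamini-Hochberg adjustment over all genes tested and a threshold of 0.05. The SE was computed from the fold change and its F statistic. Differences between responses and between control lines came from 1 fit of all 12 libraries. The steps were tested on simulated data. Columns carried no unassigned sample.

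Named with full values were members past the test by a log2 fold change of at least 0.58 in size, or called in opposite directions. From other lists, per line and direction, the 2 genes past the test with the lowest adjusted p were named, except 1 that is not reported here. Members and lists were chosen with earlier results of these data known. Alternatives were RLE and upper-quartile scaling, no filter, 5 CPM in 3 libraries, DESeq2 1.42.0, limma-voom (limma 3.58.1), 1 fit of all libraries, a replicate block and leaving out libraries. The fit without both BT-549 libraries that stood apart was added after the data were seen.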

Additional observations from a re-analysis of the deposited data

Results flagged for a closer look

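For 18 of the 32 genes the response to MUC1shRNA differed between the lines by edgeR's interaction test (adjusted p below 0.05), against 39.6% of all genes tested. With the filter of 5 CPM in 3 libraries the excess was smaller, at 17 of 30 members against 5777 of 11547 genes tested. The differences, BT-549 minus SUM149 on the log2 scale, were -1.05 for SLC2A1, -0.48 for HK1, -0.61 for HK2, -1.03 for PFKP and 0.60 for PFKL. They were -0.24 for TPI1, -0.70 for PGK1, -0.36 for ENO1, -0.32 for ENO2, -0.54 for PKM and -0.29 for LDHA. Among the regulators they were 0.45 for PFKFB2, -1.80 for PFKFB3, -0.93 for PFKFB4, 0.84 for PDK2, -0.38 for PDK3 and, for PGM1, -0.39. For PDK4 the value was 1.98, but it rests on 5 to 20 counts a library in BT-549, where the gene was too low to be tested alone. The lines differ in medium and in the depth of their arms, and the part of either in these differences was not tested. The descriptions of the libraries do not say whether the lines were processed together.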

How the results depend on the processing

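The direction of every member past a test was the same in all alternatives run, and 24 of 31 members in BT-549, 22 of 32 in SUM149, 24 of 32 for the difference of responses and 25 of 32 for the control lines also kept their side of the threshold. Over all genes, the count changed in BT-549 was 4398, and 2716 to 4470 when 1 library was left out, the lowest without MUC1shRNA 1. Member counts ranged from 9 to 13 in BT-549, 13 to 18 in SUM149, 16 to 20 for the difference and 25 to 28 for the control lines when 1 library was left out. Correlations of same-numbered libraries' deviations ran from -0.15 to 0.10 over both lines. Those of differently numbered libraries ran from -0.166 to 0.195, the highest for BT-549 MUC1shRNA 2 with CshRNA 3. With so few libraries these values cannot tell whether any were prepared as pairs. With a replicate block 9 members changed in BT-549, 18 in SUM149, 18 in the difference and 22 in the control lines, where PFKL, PDK2, PDK3 and TALDO1 no longer passed; over all genes 2951 were called in BT-549. Upper-quartile scaling moved the median of all genes in the control lines from -0.07 to -0.20, and in SUM149 it ended the calls of LDHA and SLC16A3 and added GPI and TALDO1 as lower. The summed share outside mitochondrial genes was 2.30% in BT-549 CshRNA, 1.70% in SUM149 CshRNA and 1.83% in SUM149 MUC1shRNA, and without the 4 largest genes 0.861%, 0.765%, 0.637% and 0.687% in BT-549 CshRNA, BT-549 MUC1shRNA, SUM149 CshRNA and SUM149 MUC1shRNA. By counts without length, 55 of 64 family shares moved by more than 1 SD, for example LDHA in BT-549 controls to 72.0%; the change follows from dropping the lengths. In silenced SUM149 libraries, the shallowest, SLC2A3 rested on 12 to 25 and PDK4 on 10 to 19 counts a library, which limits the precision of their fold changes.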
